A study of Mus musculus with 6 samples.

Results

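Kinetochore and centromere transcripts were followed in oocytes of aged female mice (AF), in the polysomal (P) and non-polysomal (NP) parts of a sucrose gradient. The members are 10 genes taken by name from 25899 symbols with a deposited value: *Cenpa*, *Cenpb*, *Cenpc1*, *Cenpf*, *Cenph*, *Ndc80*, *Nuf2*, *Spc24*, *Spc25* and *Zwint*. All 10 were found. The 6 libraries are 3 of AF NP and 3 of AF P, and values of a fraction are given in the order of replicates 1, 2 and 3. That an NP and a P library of the same number share a sample is not stated, so comparisons of same-numbered libraries are descriptions. Every library came from 200 oocytes of CD1 females aged 58 weeks according to the labels, taken out of meiotic arrest by 180 minutes of culture without IBMX, treated with cycloheximide at 0.1 mg/ml to hold ribosomes on mRNA, and lysed at nuclear envelope breakdown (NEBD). The study itself gives another age and strain name for these animals, and how many animals stood behind a library is not given in the sources used here. Libraries of young females were not analysed here, so nothing below compares ages. The p-values measure the spread between these 3 libraries per fraction, which may be technical. They and the SEs also borrow from the spread of other genes, so they do not rest on a gene's own spread alone.

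The kinetochore is the protein assembly that joins each chromosome to spindle microtubules. It is built on centromeric chromatin marked by the histone variant CENP-A, on which an inner layer of CENP proteins sits, and its outer layer holds the NDC80 complex, which grips the microtubule. A fully grown oocyte no longer transcribes its genes, so any of these proteins made during maturation come from stored mRNA, which ribosomes take up or leave aside. An mRNA bound by several ribosomes travels to the P fractions, and an mRNA that is free or bound by a single ribosome stays in the NP fractions.

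Stored oocyte mRNAs can be brought into translation through the cytoplasmic polyadenylation element, a short stretch of letters in the 3′ untranslated region (3′UTR) that is read together with the poly(A) signal near the end of the mRNA. TTTTAT and TTTTAAT were searched for the former and AATAAA and ATTAAA for the latter, on the sense strand of the longest 3′UTR that GENCODE M21 gives each gene. The former letters were found in 8 of 10 members, all but *Cenpf* and *Spc25*, and in 56.7% of 21005 genes with a 3′UTR. The median 3′UTR was 832 bases in the members and 961 bases in all these genes. Within the last 100 bases they were found in *Cenph*, *Ndc80* and *Spc24*, which is 3 of 10, against 17.1% of genes. Poly(A) signal letters lay in the last 100 bases in 9 of 10 members, against 77.3% of genes, and *Spc24* was the member without them. The *Spc24* transcript used here ends 566 bases short of the furthest annotated end of the gene, and that of *Zwint* 5175 bases short. With the coding transcript that reaches furthest downstream, an alternative added after seeing the data, *Spc24* had poly(A) signal letters near its end and its TTTTAT lay 594 bases away from it. The counts were then 7 of 10 members (55.1% of genes) anywhere, 2 of 10 (17.0%) for the last 100 bases, *Cenph* and *Ndc80*, and 10 of 10 (77.7%) for the poly(A) signal. Which end the oocytes use was not measured. The windows of *Spc24*, *Cenph* and *Ndc80* are shown with that of *Nuf2*, the partner of NDC80 with the highest P level after *Spc24*. Each is 30 bases, written 5′ to 3′ with the searched letters in capitals (GRCm38, minus strand in each case):
*Spc24* (chr9:21756018-21756047): ctgcagcttcttTTTTATttgtaattacat
*Cenph* (chr13:100759705-100759734): TTTTATaacttaaggAATAAAaagAATAAA
*Ndc80* (chr17:71496164-71496193): tataacatagtaTTTTATccccaaattatg
*Nuf2* (chr1:169498366-169498395): aacgtgtacagcTTTTATgtccctactctc
In these sequences TTTTAT begins 28 bases from the end of the transcript with the longest 3′UTR in *Spc24*, 61 in *Cenph*, 82 in *Ndc80* and 450 in *Nuf2*. A match is a description of letters, and binding or use of any of them was not measured.

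Values are FPKM, fragments scaled by exon length and by mapped reads, and may be compared between genes as levels per length. The deposited table holds no counts, so the reads behind each value were recovered from the steps between low values. The recovered depth was between 1237755 and 18096362 reads in AF NP and between 163809 and 1549258 reads in AF P, with AF P replicate 1 the shallowest. What 1 step counts is not settled, because reads summed over genes came to between 1.10 and 2.24 times the recovered depth, so read numbers below are a guide to precision and cover counting error only. A transcript of 2 kb listed at 0 could still be present at up to 1.21 FPKM in the shallowest NP library and up to 9.16 FPKM in AF P replicate 1, the limit of 3 reads. *Gapdh*, which every cell uses, was also listed at 0 in AF P replicate 1, and members at 0 are therefore given only as listed at 0. All 12 oocyte markers checked were detected, with sums of 10888 to 13623 FPKM in NP and 4805 to 13772 FPKM in P. Of 12 granulosa and cumulus cell markers, 8 were listed at 0 in every library, among them *Amh*, *Fshr* and *Foxl2*, with sums of 10.5 to 131 FPKM in NP and 2.28 to 15.4 FPKM in P. Most of these sums came from *Cyp19a1*, at 7.15, 22.5 and 104 FPKM in NP, and *Nr5a2*, at 3.37, 6.32 and 26.9 FPKM. Of 9 blood markers, 7 were listed at 0 in every library, all globins checked included, and the sums of 0.388 to 16.5 FPKM in NP and 0 to 8.07 FPKM in P came nearly all from *Csf1r*. The part of other cells in the members' values was not tested.

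*Spc24* was the most abundant member in both fractions, and it was the member whose P and NP libraries did not overlap. Its product pairs with SPC25 at the inner end of the NDC80 complex and ties it to the rest of the kinetochore. *Spc24* (chromosome 9, 21755442 to 21760286, minus strand, GRCm38) had NP values of 243, 128 and 207 FPKM, averaging 192.6 ± 59.2 (SD, n = 3). Its P values were 45.2, 48.1 and 91.4 FPKM, averaging 61.6 ± 25.9 (SD, n = 3). Every P value was below every NP value, which was the case for 23.2% of all genes tested, while the opposite order was seen for 0 members and 0.633% of genes tested. The P values rest on 10, 74 and 191 reads, and the NP values on 406, 3114 and 3391. In same-numbered libraries the NP level was 5.37, 2.65 and 2.27 times the P level. P was the lower one in all 3 pairs for *Spc24* alone among the members tested, and for 38.6% of genes tested. In AF P replicate 1 *Spc24* stood above 94.8% of the symbols, but only 6247 of 25899 symbols were above 0 in that library. Its rank there was 1339.

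For *Spc24* the log2 ratio of P over NP came to -1.65 (SE 0.79) on the log2(FPKM + 1) scale, with an unadjusted p of 0.0488 and an adjusted p of 0.314 in limma over all genes tested, so the difference did not pass the threshold of 0.1. Without each library in turn the ratio lay between -1.97 and -1.46. Other scalings of the libraries brought it nearer to 0, to -0.66 by medians of ratios, -0.71 by quantiles and -0.73 by a common FPKM sum. Without them the median log2 ratio of all genes tested was -1.03, and relative to it the ratio of *Spc24* was -0.62. Each library pooled 200 oocytes, so a lower level in every oocyte and a loss from some of them cannot be told apart in any of these values.

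**Figure D1:**
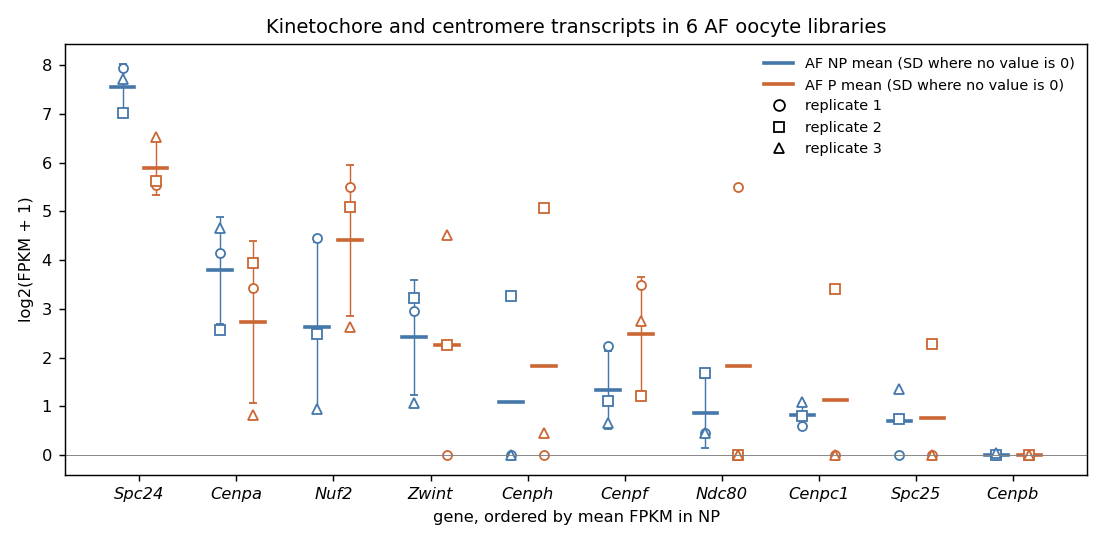
Level of each member as log2(FPKM + 1) in the 3 AF NP (blue) and 3 AF P (orange) libraries, where each symbol is a library, each thick line the mean of a fraction and each thin bar the SD, drawn where no library is at 0. *Spc24* has the highest mean of the members in both fractions, and 11 of 30 P values lie at 0.

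*Nuf2* was the member with the next highest P level, and it exceeded its NP level in each same-numbered pair of libraries. NUF2 is the partner of NDC80 in the outer, microtubule-binding dimer of the complex. *Nuf2* (chromosome 1, 169497934 to 169531464, minus strand) had NP values of 20.8, 4.57 and 0.930 FPKM, averaging 8.78 ± 10.6 (SD, n = 3). Its P values were 44.3, 32.8 and 5.20 FPKM, averaging 27.4 ± 20.1 (SD, n = 3) and resting on 18, 93 and 20 reads. The groups overlapped, since AF NP replicate 1 lay above AF P replicate 3. The P level was 2.13, 7.19 and 5.59 times the NP level in the same-numbered libraries. A higher P value in 3 of 3 such pairs was found for 2.09% of genes tested, and for *Nuf2* and *Cenpf* among the members. P over NP gave a log2 ratio of 1.78 (SE 1.25), with an adjusted p of 0.466 in limma, and between 0.94 and 2.69 without each library in turn. Under the same 3 scalings the ratio rose to 2.67, 3.11 and 2.59, with unadjusted p of 0.0354, 0.0145 and 0.0594 and adjusted p of 0.623, 0.650 and 0.699 in limma, so the size depends on the scaling and the threshold of 0.1 was passed in none of these fits.

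*Ndc80*, which encodes the subunit with the main microtubule-binding surface, had its P signal in a single library. *Ndc80* (chromosome 17, 71496100 to 71526857, minus strand) was at 44.4 FPKM in AF P replicate 1, from 16 reads, and listed at 0 in AF P replicates 2 and 3. The limit of 3 reads in those libraries is 1.19 and 0.880 FPKM for counting error alone. The NP values were all low, 0.367, 2.23 and 0.375 FPKM from 1, 89 and 10 reads. Its log2 ratio (P over NP) was 0.97 (SE 1.29, adjusted p = 0.694 in limma).

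*Spc25*, which encodes the partner of SPC24, was below *Spc24* in each library in which it was listed above 0. *Spc25* (chromosome 2, 69193895 to 69206194, minus strand) was listed at 0 in AF NP replicate 1, with 0.676 and 1.58 FPKM in the other NP libraries. Of the P libraries, replicate 2 had 3.85 FPKM, from 14 reads, and the others were listed at 0, where 3 reads would be worth 5.74 and 0.607 FPKM. Its log2 ratio (P over NP) was 0.06 (SE 0.87, adjusted p = 0.979 in limma).

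The 4 subunits of the NDC80 complex assemble in equal numbers, but their mRNA levels per length were far apart. In AF NP, *Spc24* made up 92.0%, 94.5% and 98.6% of the summed FPKM of the 4 genes. In AF P its share was 33.8%, 56.7% and 94.6%, and the share of *Nuf2* was 33.1%, 38.8% and 5.39%. The values of AF P replicate 1 rest on 10 reads for *Spc24*, 18 for *Nuf2* and 16 for *Ndc80*. The level of *Spc24* over that of *Nuf2* was 11.7, 27.9 and 222.7 in AF NP and 1.02, 1.46 and 17.6 in AF P. The ratio was lower in P than in NP within each replicate number, while AF P replicate 3 lay above AF NP replicate 1, so the fractions overlapped. *Spc24* exceeded *Spc25* by 12.5-fold in AF P replicate 2 and by 131- to 189-fold in AF NP replicates 2 and 3, where both were above 0. These folds depend on the lengths behind the FPKM, inferred as 1349 bases for *Spc24* and 3188 for *Spc25*. The gap was smaller in reads, at 74 against 14 in AF P replicate 2. In AF NP replicates 2 and 3 it was 3114 against 39 and 3391 against 61 reads. These shares and ratios are given as a description, with no test.

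**Figure D2:**
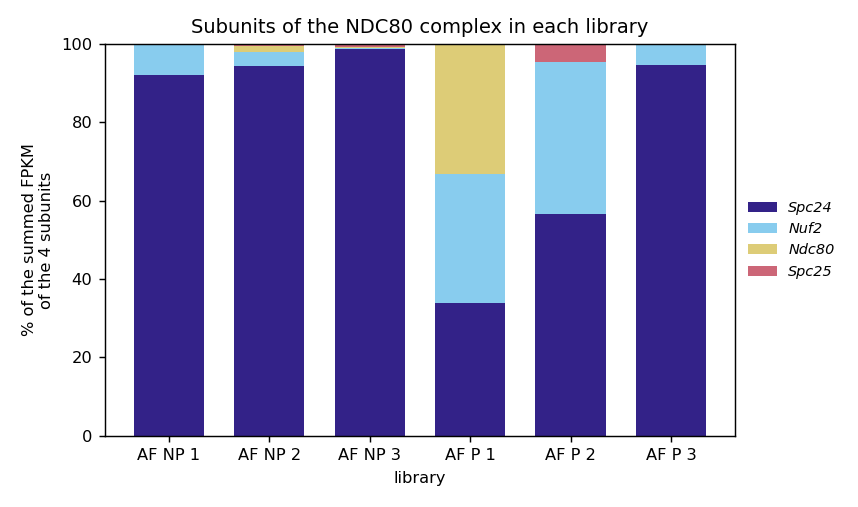
Share of each NDC80 complex subunit in the summed FPKM of *Ndc80*, *Nuf2*, *Spc24* and *Spc25*, in percent, for each of the 6 libraries. *Spc24* holds over 90% in each NP library and in AF P replicate 3, while in AF P replicate 1 *Ndc80*, *Nuf2* and *Spc24* hold 33.1% to 33.8% each.

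Of the centromere genes *Cenpa* and *Cenpb*, the former was listed above 0 in all 6 libraries, though with few reads in P. *Cenpa* encodes CENP-A, the histone H3 variant that marks the centromere. *Cenpa* (chromosome 5, 30666777 to 30674827, plus strand) had NP values of 16.8, 4.90 and 24.2 FPKM, averaging 15.3 ± 9.75 (SD, n = 3). Its P values were 9.76, 14.3 and 0.774 FPKM, averaging 8.29 ± 6.91 (SD, n = 3), from 4, 41 and 3 reads, numbers that depend on the transcript length inferred for the gene. P was higher than NP in replicate 2 and lower in replicates 1 and 3, and the groups overlapped. Its log2 ratio (P over NP) was -1.06 (SE 1.24, adjusted p = 0.644 in limma), between -1.67 and -0.11 without each library in turn, and 0.48 when scaled by quantiles.

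*Cenpb*, which encodes the protein that binds the CENP-B box of satellite DNA, was practically not read. *Cenpb* (chromosome 2, 131177291 to 131180012, minus strand) was at 0.0303 FPKM in AF NP replicate 3, from 1 read, and listed at 0 in the other 5 libraries. The limit of 3 reads lay between 0.0609 and 0.890 FPKM in AF NP and between 0.711 and 6.73 FPKM in AF P. It did not reach a mean of 1 FPKM in either fraction and was not tested. GENCODE M21 starts this gene at 131175182, so the listed interval leaves out part of the 3′ end, and its effect on the value was not tested.

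The inner kinetochore members were seen in P mainly in 1 library. *Cenpc1* encodes CENP-C, which connects CENP-A chromatin to the outer kinetochore, and *Cenph* encodes a subunit of the constitutive centromere-associated network (CCAN). *Cenpc1* (chromosome 5, 86012043 to 86065583, minus strand) had NP values of 0.509, 0.749 and 1.12 FPKM. Of its P libraries, replicate 2 had 9.66 FPKM, from 35 reads, and replicates 1 and 3 were listed at 0. *Cenph* (chromosome 13, 100759674 to 100775899, minus strand) was at 8.55 FPKM in AF NP replicate 2 and listed at 0 in AF NP replicates 1 and 3. Its P level was 32.4 FPKM in replicate 2, from 66 reads, and 0.362 FPKM in replicate 3, from 1 read, with replicate 1 listed at 0. Both genes thus had their highest value in AF P replicate 2, which held 98.9% of the summed P level of *Cenph*. For *Cenpc1* the log2 ratio was 0.31 (SE 1.01, adjusted p = 0.889 in limma). That of *Cenph* was 0.75 (SE 1.33, adjusted p = 0.779 in limma), and -0.86 without AF P replicate 2.

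Both corona and outer plate members were read in both fractions, with wide spread. *Cenpf* encodes a large protein of the outer corona that binds microtubules and dynein regulators. *Cenpf* (chromosome 1, 189640599 to 189688086, minus strand) had NP values of 3.70, 1.15 and 0.588 FPKM, averaging 1.81 ± 1.66 (SD, n = 3). Its P values were 10.2, 1.31 and 5.74 FPKM, averaging 5.76 ± 4.45 (SD, n = 3), from 19, 17 and 101 reads. P exceeded NP in 3 of 3 same-numbered pairs, by 1.14-fold in replicate 2, but AF NP replicate 1 lay above AF P replicate 2. The log2 ratio was 1.15 (SE 1.20, adjusted p = 0.602 in limma), and between 0.65 and 1.78 without each library in turn.

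*Zwint* encodes an interactor of ZW10 that sits with KNL1 at the outer kinetochore. *Zwint* (chromosome 10, 72654845 to 72674964, plus strand) had NP values of 6.74, 8.36 and 1.10 FPKM. Its P level was listed at 0 in replicate 1 and reached 3.75 and 22.0 FPKM in the others, from 19 and 151 reads. The same-numbered pairs went both ways, with P lower in replicates 1 and 2 and higher in replicate 3. Its log2 ratio (P over NP) was -0.16 (SE 1.34, adjusted p = 0.961 in limma), and the sign turned to 0.70, 0.998 and 0.47 under each of 3 other scalings.

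**Figure D3:**
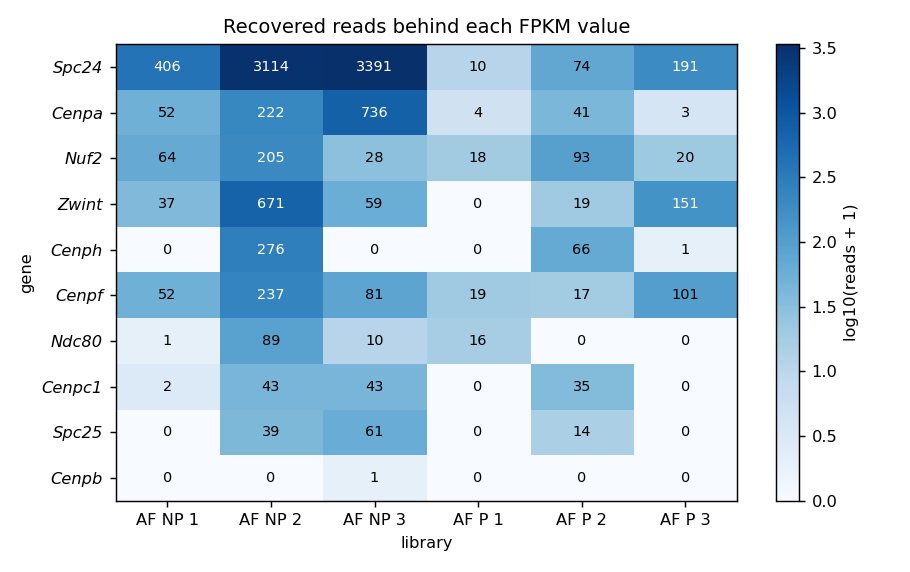
Reads recovered behind each member (vertical) in each of the 6 libraries (horizontal), printed in each cell and shown by its shade. *Spc24* rests on 406 to 3391 reads in NP and 10 to 191 in P, while *Cenpb* has 1 read in all.

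Of the 10 members, 9 had a mean above 1 FPKM in a fraction and were tested, and 0 passed an adjusted p of 0.1 in limma, where 1.82% of 10578 genes tested did. At an unadjusted p under 0.05 there was 1 member, *Spc24*, against 15.8% of genes tested. Scaled by medians of ratios or quantiles, the member under 0.05 was *Nuf2* and no longer *Spc24*, whose p was then 0.429 and 0.310 in limma. The background was then 777 of 10145 and 762 of 10578 genes tested. With a common FPKM sum, without the trend, and without any single library other than AF P replicate 3, 0 members were under 0.05. Genes tested under 0.05 were 763 of 10506 with the common sum and 1731 of 10578 without the trend. Without such a single library they ran from 956 of 10174 to 2383 of 10683. Without AF P replicate 3 there were 2 members, *Spc24* and *Nuf2*, against 1443 of 10568 genes tested. Over all 6 libraries without scaling, the genes called at an adjusted p of 0.1 in limma were 2 higher in P (0.0189%) and 190 lower (1.8%). Over all 10 members the log2 difference was above 0 in 6, with a median of 0.18 and medians of 0, 0.74 and -0.25 within same-numbered pairs 1, 2 and 3. Over the 14482 symbols above 0 in some library, 19.1% had a log2 difference above 0, as did 19.9% of genes tested. That background depends on the scaling, since by medians of ratios, quantiles and a common sum 4086 of 10145, 5303 of 10578 and 4036 of 10506 genes tested were above 0, beside 7, 8 and 7 of the 10 members. The members' median turned to -0.43 without AF P replicate 2 and to -0.35 with a pseudocount of 0.1.

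Detection was uneven between the fractions and among the P libraries. Members above 0 in all 3 NP libraries numbered 7 of the 9 tested, against 79.7% of genes tested, and those above 0 in all 3 P libraries numbered 4 of 9, against 44%. Over 90% of the P sum came from 1 library for *Cenpc1*, *Cenph*, *Ndc80* and *Spc25*, 4 of the 9 members with a P mean above 1 FPKM, and for 23.1% of 8009 such genes. For *Ndc80* that library was AF P replicate 1, and for the other 3 it was AF P replicate 2. Members listed at 0 numbered 5, 2 and 4 in AF P replicates 1, 2 and 3, whose recovered depths were 163809, 1141481 and 1549258 reads, and the part of depth in this was not tested.

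By mean FPKM the order in NP was *Spc24*, *Cenpa*, *Nuf2*, *Zwint*, *Cenph*, *Cenpf*, *Ndc80*, *Cenpc1*, *Spc25* and *Cenpb*. In P it was *Spc24*, *Nuf2*, *Ndc80*, *Cenph*, *Zwint*, *Cenpa*, *Cenpf*, *Cenpc1*, *Spc25* and *Cenpb*. In both orders *Spc24* was the member whose level lay above that of the next gene in every library. In AF P replicate 1 this was by less than 1 read, at 45.2 FPKM against 44.4 for *Ndc80* and 44.3 for *Nuf2* where 1 read of *Spc24* is worth 4.53 FPKM, so that in P the place of *Spc24* is not resolved in that library. All other neighbours overlapped in their libraries, so the rest of the order is not resolved by 3 libraries per fraction. The genes most like *Spc24* across the 6 libraries, by the mean absolute difference in log2(FPKM + 1) over 10569 genes, were *Rnf25* at 0.22, *Fbxl19* at 0.33 and *Gga3* at 0.36. *Rnf25* had NP values of 125, 140 and 194 FPKM and P values of 44.8, 47.8 and 99.1 FPKM.

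Some members share letters with other genes, and how reads with several matches were counted is not given in the sources used here. Over matches of at least 100 bases at 90% identity, 84.2% of the *Cenpc1* transcript was shared, the longest match being to the processed pseudogene *Gm13477*. For *Ndc80* the share was 76.5%, with the pseudogene *2700099C18Rik* as the longest match, and for *Zwint* it was 27.2%, with *Gm8099*. *Nuf2* shared 7.28% and *Cenpf* 1.88%, and *Cenpa*, *Cenpb*, *Cenph*, *Spc24* and *Spc25* shared none. The values of *Cenpc1*, *Ndc80* and *Zwint* are therefore uncertain. Exons of another gene overlapped those of *Cenpb* alone among the members, by 20 bases of *Spef1*.

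A wider list of 31 kinetochore genes that are not members was read from the same fit: inner kinetochore, CENP-A loading, Mis12, KNL1, Ska, and RZZ and corona genes. All 31 were found, 8 of them under older symbols, and 25 were tested. At an adjusted p of 0.1 in limma 2 were lower in P, against 1.8% of genes tested, and 0 were higher. At an unadjusted p under 0.05 there were 4 of 25, near the 15.8% of genes tested. The log2 difference was above 0 in 8 of 31, and its median over the 31 was -0.52. This direction turned with the scaling: among genes tested 6 of 25 were above 0 with a median of -0.83, but 14 of 27, 15 of 25 and 14 of 27 by medians of ratios, quantiles and a common sum, with medians of 0.03, 0.15 and 0.02. Of the 25 tested, 10 were listed above 0 in all 3 P libraries, against 44% of genes tested, and 20 in all 3 NP libraries, against 79.7%.

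The genes of the wider list past the threshold were *Cenpm* and *Cenpx*, both of the inner kinetochore. *Cenpm*, a CCAN subunit, had NP values of 57.9, 292.7 and 378 FPKM, and in P it was listed at 0 in replicate 1 and reached 8.75 and 32.8 FPKM in the others. The fitted log2 ratio, which depends on the pseudocount, was -4.76 (SE 1.18, adjusted p = 0.0597 in limma). *Cenpx* (listed as *Stra13*), which encodes a histone-fold protein of the CENP-T group, had NP values of 125, 355 and 204 FPKM and P values of 17.0, 21.1 and 6.59 FPKM. Its log2 ratio was -3.86 (SE 0.91, adjusted p = 0.0505 in limma). P libraries lay below NP libraries throughout for both genes. Neither gene passed under any of the 3 other scalings or without any single NP library, and *Cenpm* also missed the threshold without AF P replicate 1 (adjusted p = 0.103 in limma) and without AF P replicate 2 (0.116). The adjusted p in limma reached 0.581 for *Cenpm* and 0.501 for *Cenpx*. The ratios stayed far below 0 in these fits, at -3.74 to -4.01 under the scalings and -4.25 to -5.59 without an NP library for *Cenpm*, which was at -3.37 and -5.01 without AF P replicates 1 and 2. For *Cenpx* they were -2.74 to -2.95 and -3.47 to -4.22.

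The other abundant genes of the wider list did not pass. *Dsn1*, of the Mis12 complex to which SPC24 and SPC25 bind, had NP values of 330, 215 and 63.9 FPKM and P values of 63.7, 65.8 and 108 FPKM. Its log2 ratio was -1.10 (adjusted p = 0.490 in limma), and it moved to -0.11, -0.17 and -0.17 under the 3 scalings and ranged from -1.78 to -0.60 without 1 NP library. *Cenpn*, whose product reads CENP-A nucleosomes, overlapped between the fractions, with 123, 100.1 and 139 FPKM in NP and 117, 120.4 and 69.7 FPKM in P (log2 ratio -0.26, adjusted p = 0.875 in limma). *Cenpo*, a CCAN subunit, had NP values of 71.4, 77.9 and 97.1 FPKM and P values of 94.1, 24.6 and 39.5 FPKM (log2 ratio -0.84, adjusted p = 0.607 in limma). The sign of *Cenpn* turned to 0.72, 0.81 and 0.66 and that of *Cenpo* to 0.14, 0.15 and 0.08 under the 3 scalings. Exons of *Cenpo* overlap 1380 bases of *Adcy3* on the other strand, and without a stated strand setting reads of the pair cannot be told apart, though *Adcy3* was listed at no more than 1.86 FPKM in any library. *Nsl1* and *Pmf1*, named after their values were seen, were the other genes with an unadjusted p under 0.05, at adjusted p of 0.162 and 0.263 in limma. *Nsl1*, *Cenpl*, *Cenpw*, *Itgb3bp* and *Oip5* were listed at 0 in all 3 P libraries, and these too were picked out after their values were seen. *Cenpl*, *Cenpw* and *Itgb3bp* were too low to be tested, with NP means of 0.656, 0.448 and 0.0477 FPKM. The share of all genes listed at 0 in all 3 P libraries was not counted.

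**Figure D4:**
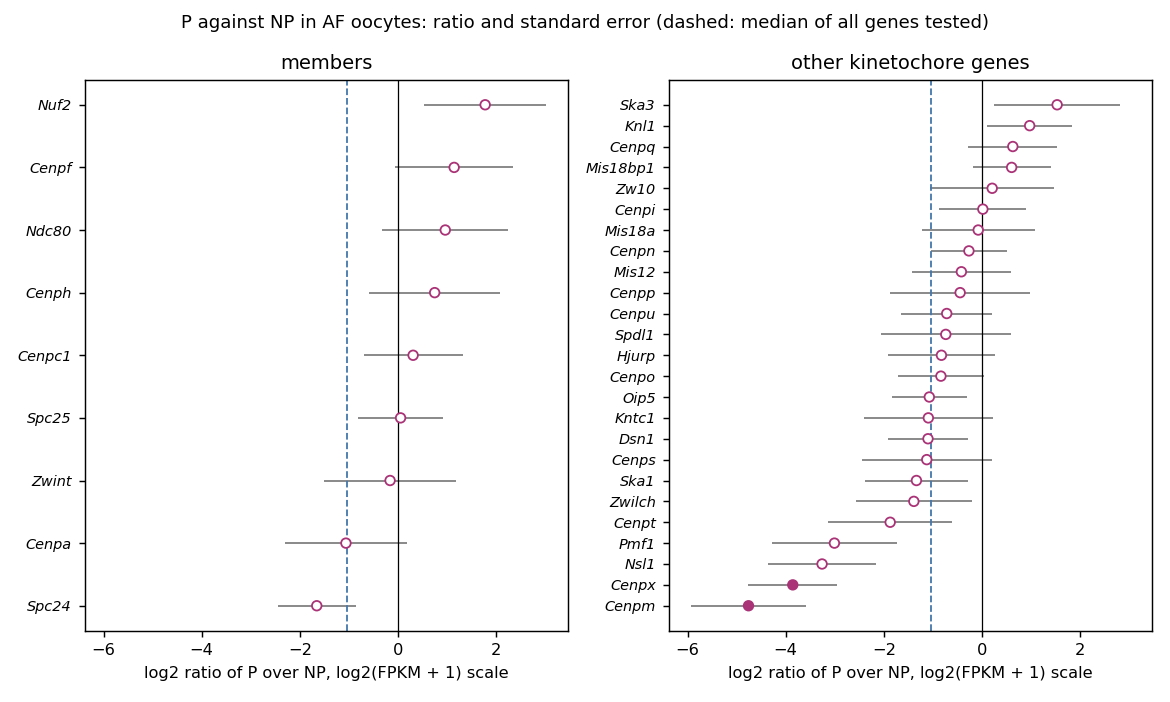
Log2 ratio of P over NP on the log2(FPKM + 1) scale with its standard error for the 9 members tested (left) and the 25 tested genes of the wider list (right), where filled symbols passed an adjusted p of 0.1 and the dashed line is the median of all genes tested, -1.03. *Nuf2* has the highest ratio among the members at 1.78 and *Spc24* the lowest at -1.65, and *Cenpm* and *Cenpx* are the filled symbols.

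**Figure D5:**
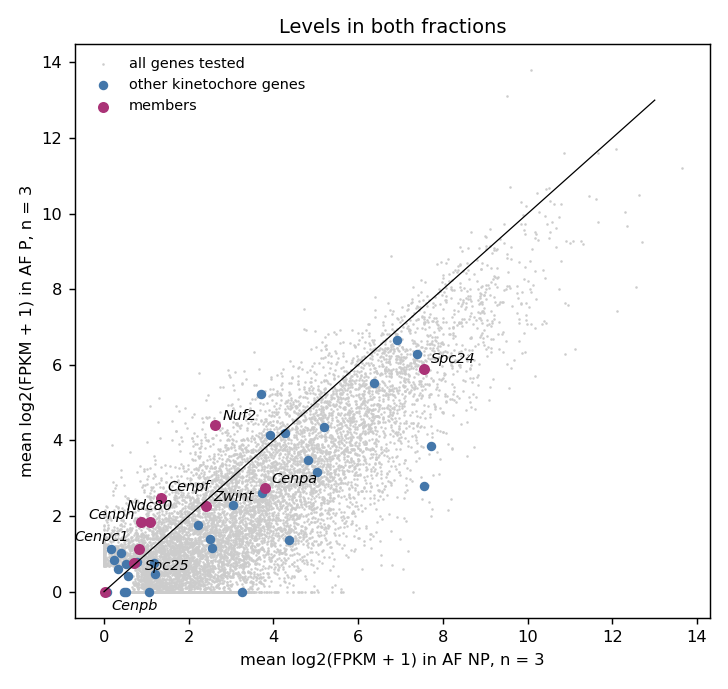
Mean log2(FPKM + 1) of 3 AF NP libraries (horizontal) against that of 3 AF P libraries (vertical), with grey points for genes tested, blue for the wider kinetochore list, red for the members, and the line of equal levels. *Spc24* lies below the line among the abundant genes, and *Nuf2*, *Cenpf*, *Ndc80*, *Cenph*, *Cenpc1* and *Spc25* lie on its P side, with log2 ratios of 0.06 to 1.78.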

How the data were processed

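Polysome profiling was followed by RNA-Seq of 3 NP and 3 P libraries of AF oocytes. Each sample was split into 10 gradient fractions, which the authors pooled into NP and P, depleted of rRNA and amplified as whole transcriptome cDNA, which can widen the spread of rare mRNAs. According to the study and the submitters' processing notes, reads were trimmed with Trim Galore 0.4.1 and aligned to GRCm38 with HISAT2 2.0.5. The values deposited by the authors are FPKM from Seqmonk 1.40.0. Annotation release and strand setting: not given in the sources used here. For duplicated symbols the highest mean over the 6 libraries was kept.

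A two-sided limma fit (version 3.58.1, R 4.3.3) of log2(FPKM + 1) set P against NP, letting the spread follow the level, for genes with a mean above 1 FPKM in a fraction, with Benjamini-Hochberg adjustment over all of them and a threshold of 0.1. With this pseudocount a ratio understates the change of low genes. Depth was recovered as the value that made the most low FPKM values whole reads within 0.02 reads at GENCODE M21 exon lengths, which worked for 55.6% to 60.8% of 3000 low values per library. For each member the shortest length between 300 and 12000 bases that made its values whole was then used, a choice made after its values were seen, so its reads are the fewest the values allow. These lengths ran from 0.557 to 2.09 times the longest coding transcript.

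Sequences were compared with BLAST 2.17.0, and UTRs were cut from GENCODE transcripts in Python 3.11.15. The members and lists were chosen with earlier results of these data known. Named genes are the members, genes of the wider list past the threshold and its 5 most abundant, and the 3 genes nearest to the most abundant member. Genes outside this rule are said to be picked after their values were seen, apart from markers and overlapping or similar genes. Alternatives were other pseudocounts, filters, thresholds and scalings, no trend, the replicate number as a block, and each library left out.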

Additional observations from a re-analysis of the deposited data

How the results depend on the processing

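In every alternative run 0 members passed, with the lowest adjusted p in limma at 0.239. The number of all genes called was 192 and moved to 65 at an adjusted p of 0.05, 69 with a pseudocount of 0.1, 0 without the filter (1759 at an unadjusted p under 0.05), 15 without the trend, and, among scalings, 3 with median-of-ratios, 4 with quantile and 7 with a common FPKM sum. Genes higher in P were 2 of the 192, and 2 of 3, 2 of 4 and 2 of 7 under those scalings, which moved the median log2 ratio of all genes from -1.03 to -0.37, 0.0027 and -0.43. With the replicate number as a block 668 genes were called, the wider list gaining *Nsl1* at an adjusted p of 0.0808 in limma, and deviations of same-numbered libraries correlated at 0.063, 0.099 and 0.116, not all above 0.1, so the numbers were not taken as pairs. Each library correlated best with its own number (at most 0.021 otherwise), and each sample's fractions were pooled into both NP and P, so a number may mark a gradient, though no source used here says so. Leaving out 1 library gave between 1 (without AF NP replicate 3) and 331 genes (without AF P replicate 3). The wider list had 2 genes called, 1 with a pseudocount of 0.1, 0 at an adjusted p of 0.05, without the filter, without the trend and under each scaling, and 0 to 2 without 1 library. The members' median of 0.18 was -0.35 with a pseudocount of 0.1, 1.01 under quantile scaling and between -0.43 and 0.66 without 1 library. Of 139 fits of single members 13 changed sign. The other threshold and filters, no trend and the replicate block leave the log2 ratio as it was, so the fits under them could not change sign. With a pseudocount of 0.1 the log2 ratio was -0.90 for *Cenpc1*, -0.073 for *Ndc80* and -0.57 for *Spc25*. Under quantile scaling it was 0.48 for *Cenpa* and 0.998 for *Zwint*, which was also at 0.10 with a pseudocount of 5, 0.70 under median-of-ratios scaling and 0.47 with a common sum. Without 1 library the ratio of *Cenph* ranged from -0.86 to 1.84, that of *Spc25* from -0.30 to 0.43 (with no fit without AF P replicate 2, its one P library above 0, where it fell below the filter, as did *Cenpc1* there and *Ndc80* without AF P replicate 1) and that of *Zwint* from -1.29 to 0.97. The polyadenylation element letters were found in 8 members anywhere in the 3′UTR and in 3 in its last 100 bases. At GENCODE exon lengths, tried after seeing the data, the reads behind a member rose for 7 of 10, from 1058 to 2477 for *Cenpa*, 428 to 1094 for *Nuf2*, 116 to 342 for *Ndc80* and 7186 to 13706 for *Spc24*. For these changes the cause was not tested. Of the members' P values 11 of 30 were listed at 0, and at the lowest depth 3 reads of a 2 kb transcript are worth 9.16 FPKM.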
